A study of Mus musculus with 4 samples.

Results

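The joining (J) segments TRAJ37 to TRAJ47 lie side by side in the V-facing part of the J cluster of the mouse TCRα locus. A clone was counted to them when the first J segment listed for it, without its allele, had a number from 37 to 47. Of 189388 TCRα clones in 4 libraries, 36727 used these segments, and they held 163652 of 871808 reads. RefSeq lists 11 segments with these numbers on chr14:54171802-54181577 (GRCm38), of which 10 were found in a clone and 9 were found in every library. TRAJ41 was found in 3 clones and TRAJ46 in no clone. The libraries held clones of 44 TRAJ segments in all.

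The libraries came from splenic CD4 T cells of 2 WT (C57BL/6) and 2 Tet2/3 DKO mice, sorted as live TCRβ+ CD4+ cells without CD25 and without binding of the αGalCer-loaded CD1d tetramer. The mice were on average 25 days old, and the Tet2/3 DKO mice were at least 22 days old. The Tet2/3 DKO mice (Tet2-/- Tet3 flx/flx CD4Cre) lack TET2 in every cell from the germline, while the Cre driven by Cd4 removes Tet3 from the double positive (DP) stage of the thymus on, which is the stage at which TCRα genes recombine. TET2 and TET3 are enzymes that oxidise methylated cytosine in DNA. The mice were male and female, and the 4 libraries are replicate 1 and 2 of each genotype. Tables of TCR clones hold no other genes, so the markers of the sort could not be checked in them.

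A TCRα chain is made by joining a V segment (TRAV) to a J segment, with no D segment between them. The enzymes that open and close the joint remove bases from both ends and add bases at random, so that part of the joints are out of frame. The stretch around the joint is the third complementarity determining region (CDR3), the part of the chain that mostly contacts the peptide. The locus can recombine several times in the same cell. Early joints use V segments close to the J cluster and J segments at its V-facing side, and each later joint removes them and uses V segments further out and J segments closer to the constant region. The order of the segments on the chromosome therefore also orders them by the rounds in which they can be used. Out-of-frame chains make no receptor and were not selected as proteins, whereas in-frame chains could be.

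The germline sequences are shown because the length and the last residue of the CDR3 differ between the segments. Each was read from the deposited clones whose J end had lost no base, 5′ to 3′, and is the sequence found most often among them. Capitals mark the part that belongs to the CDR3, and the lower case part is framework region 4.
TRAJ47: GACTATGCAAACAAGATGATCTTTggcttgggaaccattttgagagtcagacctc
TRAJ45: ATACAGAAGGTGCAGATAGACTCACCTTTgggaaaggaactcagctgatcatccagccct
TRAJ44: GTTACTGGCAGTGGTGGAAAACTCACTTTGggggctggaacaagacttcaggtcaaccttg
TRAJ43: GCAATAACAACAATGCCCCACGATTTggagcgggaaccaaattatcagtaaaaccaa
TRAJ42: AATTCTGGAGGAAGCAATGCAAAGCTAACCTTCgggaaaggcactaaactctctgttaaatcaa
TRAJ41: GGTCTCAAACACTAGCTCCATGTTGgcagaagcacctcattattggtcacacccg
TRAJ40: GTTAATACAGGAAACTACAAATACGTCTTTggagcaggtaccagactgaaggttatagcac
TRAJ39: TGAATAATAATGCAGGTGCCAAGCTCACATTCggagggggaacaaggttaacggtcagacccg
TRAJ38: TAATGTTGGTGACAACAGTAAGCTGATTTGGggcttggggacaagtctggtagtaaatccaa
TRAJ37: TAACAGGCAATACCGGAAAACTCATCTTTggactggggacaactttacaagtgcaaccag
RefSeq (GRCm38) places TRAJ47 at chr14:54171802-54171856, TRAJ45 at chr14:54172831-54172890, TRAJ44 at chr14:54173690-54173750, TRAJ43 at chr14:54174742-54174798 and TRAJ42 at chr14:54175773-54175836. Further to the C side lie TRAJ41 at chr14:54176271-54176325, TRAJ40 at chr14:54177921-54177981, TRAJ39 at chr14:54179962-54180024, TRAJ38 at chr14:54180574-54180635 and TRAJ37 at chr14:54181518-54181577. RefSeq lists each as a J segment. In all 10 segments the length equalled that of the RefSeq entry. The sequence of TRAJ41 rests on 1 clone. Its CDR3 part ends in a leucine codon (TTG) followed by gca, where the other segments shown carry a glycine codon. The part inside the CDR3 ran from 24 bases in TRAJ47 to 33 bases in TRAJ42. The CDR3 of the in-frame clones ended in phenylalanine in 99.7% to 100% of the clones of TRAJ37, TRAJ39, TRAJ40, TRAJ42, TRAJ43, TRAJ45 and TRAJ47 in each library. It ended so in 0% of the clones of TRAJ38 and TRAJ44, whose germline CDR3 parts end in a tryptophan codon (TGG) and a leucine codon (TTG).

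TRAJ41 held 1 read in WT replicate 1, 6 reads in WT replicate 2 and none in the Tet2/3 DKO libraries. A count of 0 allowed a share of up to 0.00154% of the reads in Tet2/3 DKO replicate 1 and up to 0.00104% in replicate 2. Of its 3 clones, 1 was out of frame, and the other 2 shared 1 in-frame CDR3 with TRAV6-5. TRAJ41 fell under the filter of 10 counts in total and was not tested.

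The TCRα libraries held 172506 (WT replicate 1), 216457 (WT replicate 2), 195046 (Tet2/3 DKO replicate 1) and 287799 reads (Tet2/3 DKO replicate 2), in 39463, 48790, 47291 and 53844 clones. In reads, more cells of a clone and more RNA per cell cannot be told apart. Reads of these libraries carry no molecular identifiers, so the 95% Wilson intervals given for single libraries, and the limits for a count of 0 (3 counts), cover counting error only. The widest of these intervals for 1 of the segments was ± 0.103 percentage points by reads, ± 0.205 by clones and ± 0.555 in out-of-frame clones. With 2 libraries per genotype an exact two-sided permutation test cannot give a p below 0.33, and over the 4 libraries as pairs it cannot go below 0.13.

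TRAJ37 was the most used of the segments, and by reads and by clones TRAJ38 and TRAJ47 were the least used of those found in every library. In out-of-frame clones TRAJ44 (0.854%) and TRAJ47 (0.847%) were the least used, and TRAJ38 held 1.13%, as means of the 4 libraries. By clones, TRAJ37 held 4.50% and 4.34% in WT against 4.49% and 4.11% in Tet2/3 DKO, and it ranked 4 among all 44 TRAJ segments. TRAJ40 followed with 3.06% ± 0.143 (SD, n = 4), TRAJ39 with 2.83% ± 0.0117, TRAJ43 with 2.64% ± 0.0998 and TRAJ42 with 2.50% ± 0.123. These 5 segments ranked between 4 and 18 of 44. A second tier held TRAJ44 with 1.22% ± 0.0157, TRAJ45 with 1.16% ± 0.0257, TRAJ38 with 0.839% ± 0.0133 and TRAJ47 with 0.820% ± 0.0757, at ranks 31 to 39. By clones the ranges of the 4 libraries overlapped between TRAJ43 and TRAJ42 and between TRAJ38 and TRAJ47, and not between the other neighbours in this order. By reads the ranges of TRAJ40, TRAJ39, TRAJ42 and TRAJ43 overlapped from each to the next, as did those of TRAJ45 and TRAJ44 and those of TRAJ38 and TRAJ47. The nearest segments with a clone on either side, TRAJ48 and TRAJ35, held 1.67% and 0.617% of clones as means of the 4 libraries.

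**Figure D1:**
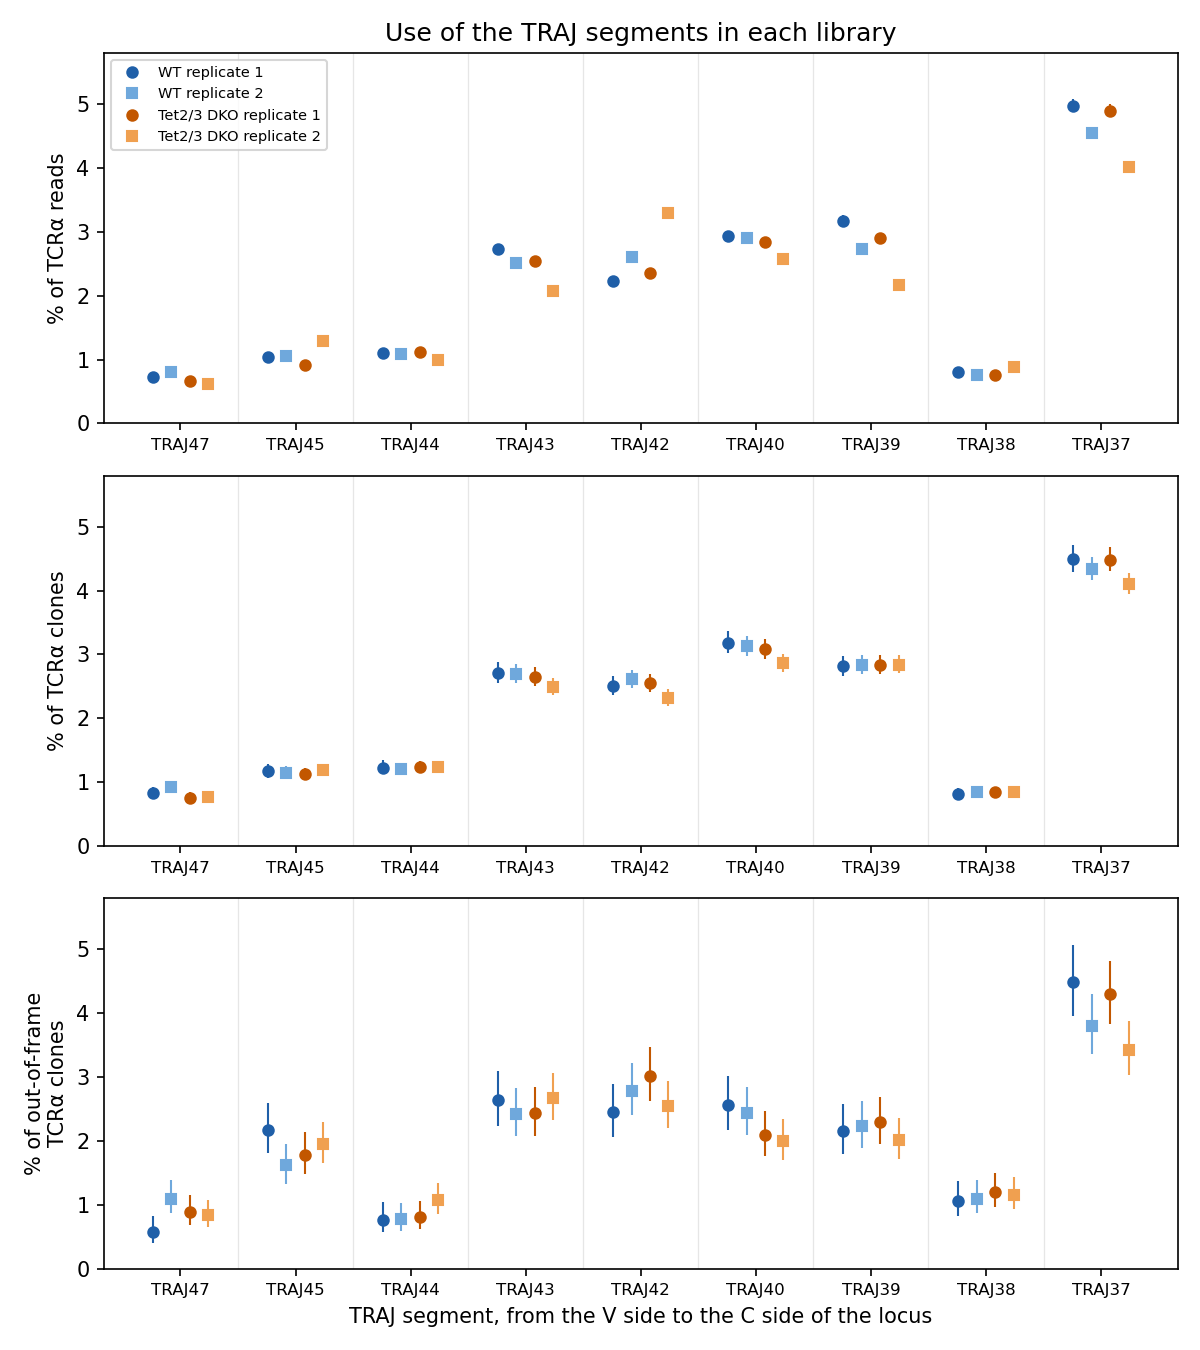
Share of each TRAJ segment in % of TCRα reads (top), of TCRα clones (middle) and of out-of-frame TCRα clones (bottom), with 1 point per library and its 95% Wilson interval. The segments run from the V side to the C side of the locus. TRAJ37 was highest in every library and panel, and the TRAJ42 point of Tet2/3 DKO replicate 2 stands at 3.29% by reads and at 2.32% by clones.

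The first comparison asked whether the loss of TET2 and TET3 changed how often the segments were used. As a block, TRAJ37 to TRAJ47 held 19.7% and 19.0% of reads in WT against 19.0% and 17.9% in Tet2/3 DKO. The means were 19.4% ± 0.509 and 18.4% ± 0.774 (SD, n = 2 each), and the genotypes did not overlap, although WT replicate 2 (19.00%) and Tet2/3 DKO replicate 1 (18.98%) were close (exact permutation p = 0.33). By clones the block held 19.8% and 19.7% in WT against 19.6% and 18.7% in Tet2/3 DKO, a difference of -0.624 percentage points without overlap (exact permutation p = 0.33). In out-of-frame clones it held 18.9% and 18.2% in WT against 18.8% and 17.6% in Tet2/3 DKO, and the genotypes overlapped (exact permutation p = 0.667). In each of the 3 measures the lowest value belonged to Tet2/3 DKO replicate 2. Leaving that library out changed the difference by reads from -0.932 to -0.384 percentage points and that by clones from -0.624 to -0.174, and turned that of the out-of-frame clones from -0.341 to 0.227.

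No single segment of the block passed the test between genotypes. With the quasi-likelihood test of edgeR, 0 of the 9 segments had an adjusted p under 0.05 by reads, beside 2 of all 43 segments tested (4.65%). By clones and in out-of-frame clones it called 0 of 9, beside 0 of 43 (0%). At an unadjusted p under 0.05 the numbers for the 9 segments were 0 by reads, 1 by clones and 1 in out-of-frame clones, beside 6.98%, 11.6% and 11.6% of all segments. DESeq2 called none of the 9 at an adjusted p under 0.05 in any of the 3 tables. Without Tet2/3 DKO replicate 1 edgeR called 9 of 43 segments by clones, among them TRAJ40 and TRAJ42 (log2 change -0.14 and adjusted p = 0.0358 for each). The fitted log2 changes of the 9 segments (Tet2/3 DKO over WT) ran from -0.25 to 0.22 by reads, from -0.21 to 0.03 by clones and from -0.29 to 0.29 in out-of-frame clones. Their medians were -0.10, -0.04 and 0.00, and those of all 43 segments 0.01, 0.01 and 0.02.

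TRAJ47, the segment at the V side of the block, had the largest log2 change by clones. It held 0.831% and 0.922% of clones in WT against 0.757% and 0.769% in Tet2/3 DKO, and 0.733% and 0.799% of reads in WT against 0.665% and 0.621% in Tet2/3 DKO. Both Tet2/3 DKO libraries lay under both WT libraries in each measure. The log2 change by clones was -0.21 ± 0.07 (SE), with an unadjusted p of 0.0229 and an adjusted p of 0.348 in edgeR. It was -0.12 without WT replicate 2, and -0.27 to -0.20 without any other library. In out-of-frame clones TRAJ47 held 0.579% and 1.09% in WT against 0.884% and 0.833% in Tet2/3 DKO, so that the WT libraries lay on both sides of the Tet2/3 DKO libraries. These shares rest on 31, 69, 56 and 60 clones.

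TRAJ40 had the largest difference in out-of-frame clones in percentage points. It held 2.56% and 2.44% of them in WT against 2.08% and 2.0% in Tet2/3 DKO, on 137, 154, 132 and 144 clones. The log2 change was -0.29 ± 0.13 (SE), with an unadjusted p of 0.0277 and an adjusted p of 0.297 in edgeR. By clones it held 3.19% and 3.13% in WT against 3.09% and 2.86% in Tet2/3 DKO, also without overlap, and by reads 2.94% and 2.90% against 2.83% and 2.57%.

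TRAJ37, the most used segment, held 4.98% and 4.56% of reads in WT against 4.90% and 4.01% in Tet2/3 DKO, and the genotypes overlapped. Its share of out-of-frame clones was 4.48% and 3.80% in WT against 4.29% and 3.43% in Tet2/3 DKO, again with overlap.

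TRAJ39 and TRAJ42 had shares of reads that were more uneven than their shares of clones. TRAJ39 held 3.18% and 2.72% of reads in WT against 2.90% and 2.17% in Tet2/3 DKO, while its share of clones was 2.81% and 2.83% in WT against 2.83% and 2.84% in Tet2/3 DKO. Neither difference passed the test (adjusted p = 0.793 by reads and 0.886 by clones in edgeR). TRAJ42 held 2.23% and 2.60% of reads in WT against 2.35% and 3.29% in Tet2/3 DKO (log2 change 0.22 ± 0.14 SE, adjusted p = 0.793 in edgeR). By clones TRAJ42 held 2.51% and 2.61% in WT against 2.55% and 2.32% in Tet2/3 DKO. The log2 change by clones was -0.08, opposite in sign to that by reads. Without Tet2/3 DKO replicate 2 the signs were alike, with -0.039 by reads and -0.0088 by clones. The high value of TRAJ42 in Tet2/3 DKO replicate 2 came with a single large clone, described with the largest clones. With the largest TRAJ42 clone of each library left out, TRAJ42 held 2.18% and 2.45% in WT against 2.31% and 2.28% in Tet2/3 DKO.

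TRAJ43, TRAJ44, TRAJ45 and TRAJ38 were close between the genotypes by clones. TRAJ43 held 2.71% and 2.70% of clones in WT against 2.65% and 2.49% in Tet2/3 DKO. TRAJ44 held 1.23% and 1.20% in WT against 1.23% and 1.23% in Tet2/3 DKO. TRAJ45 held 1.17% and 1.15% in WT against 1.13% and 1.19% in Tet2/3 DKO. None of these had an adjusted p under 0.05 in edgeR. TRAJ38 held 0.821% and 0.840% in WT against 0.844% and 0.852% in Tet2/3 DKO. By clones the genotypes did not overlap for 3 segments that were lower in Tet2/3 DKO (TRAJ40, TRAJ43 and TRAJ47), beside 20.9% of all segments, and for 3 that were higher (TRAJ38, TRAJ39 and TRAJ44), beside 34.9% of all segments. By reads 2 segments of the block were lower without overlap (TRAJ40 and TRAJ47), beside 9.3% of all segments, and 0 were higher, beside 14%. In out-of-frame clones 1 was lower (TRAJ40), beside 23.3%, and 2 were higher (TRAJ38 and TRAJ44), beside 25.6%. Libraries that do not overlap were thus common over all segments, also where edgeR called nothing.

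The second comparison set the in-frame clones, which could be selected as proteins, beside the out-of-frame clones of the same libraries. Over the block, 86.3% and 87.4% of the clones with a CDR3 were in frame without a stop codon in WT against 86.5% and 86.9% in Tet2/3 DKO. Among clones of all other segments the values were 85.6% and 86.2% in WT against 85.9% and 85.9% in Tet2/3 DKO. The block was higher in 4 of 4 libraries, by 0.869 ± 0.255 percentage points (SD, n = 4, exact paired permutation p = 0.13, adjusted p = 0.143 over 8 comparisons of the block with the other segments). The genotypes overlapped (exact permutation p = 1.0).

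The segments of the block lay on both sides of an equal share. TRAJ45 held 2.17% and 1.61% of out-of-frame clones in WT against 1.78% and 1.94% in Tet2/3 DKO, and 0.981% and 1.05% of in-frame clones in WT against 1.00% and 1.05% in Tet2/3 DKO. Its out-of-frame share was higher in 4 of 4 libraries, with a mean log2 ratio of in-frame over out-of-frame share of -0.87 ± 0.21 (SD, n = 4, exact paired permutation p = 0.13, adjusted p = 0.225 over the 9 segments). In this ratio TRAJ45 ranked 3 from the lowest of 43 segments. TRAJ38 was also lower in frame in 4 of 4 libraries, with a mean log2 ratio of -0.49 ± 0.07.

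TRAJ44, TRAJ40 and TRAJ39 went the opposite way in 4 of 4 libraries. TRAJ44 held 0.766% and 0.775% of out-of-frame clones in WT against 0.805% and 1.07% in Tet2/3 DKO, beside 1.33% and 1.28% of in-frame clones in WT against 1.30% and 1.28% in Tet2/3 DKO. The mean log2 ratio was 0.62 ± 0.24 for TRAJ44, 0.49 ± 0.14 for TRAJ40 and 0.43 ± 0.09 for TRAJ39 (exact paired permutation p = 0.13 and adjusted p = 0.225 for each). They ranked 42, 39 and 38 from the lowest of 43. Of all 43 segments, 27.9% were higher out of frame in 4 of 4 libraries and 34.9% were higher in frame. TRAJ37, TRAJ42, TRAJ43 and TRAJ47 changed sign between libraries.

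**Figure D2:**
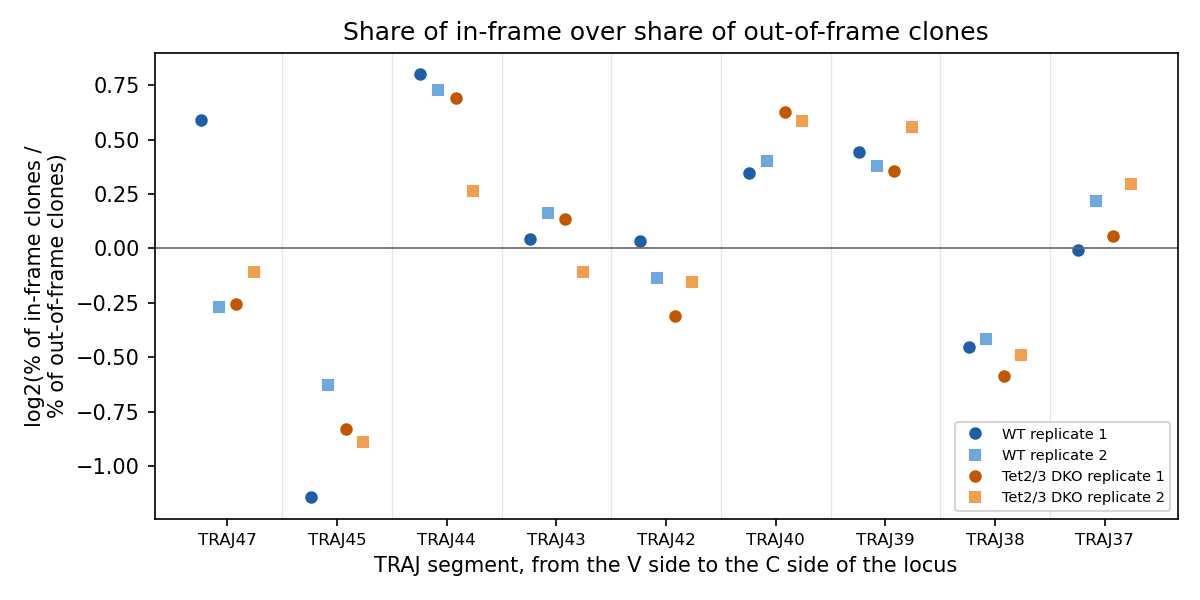
Log2 ratio of the share of in-frame clones over the share of out-of-frame clones for each TRAJ segment, with 1 point per library and a line at 0 for equal shares. TRAJ45 and TRAJ38 lie under 0, and TRAJ44, TRAJ40 and TRAJ39 above 0, in 4 of 4 libraries.

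The joints themselves were described next. The J end was cut back most in TRAJ39 and least in TRAJ47. In in-frame clones TRAJ39 had lost 5.22 and 5.20 bases in WT against 4.98 and 4.90 in Tet2/3 DKO, the largest mean of all 43 segments, and TRAJ40 3.94 ± 0.0850 (SD, n = 4). TRAJ47 had lost 1.35 ± 0.163 bases, TRAJ37 1.85 ± 0.0726 and TRAJ38 1.98 ± 0.173. In the out-of-frame clones, which were not selected as proteins, TRAJ39 was also the most trimmed of 43 segments, with 4.62 ± 0.499 bases, and TRAJ47 was near the least with 1.26 ± 0.512. No J base was missing in 54.2% ± 5.18 of the clones of TRAJ47 with a CDR3 (in frame and out of frame), beside 7.10% ± 1.33 of those of TRAJ39 and 10.4% ± 0.961 of those of TRAJ40.

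Between V and J, the block carried more added bases than the other segments. Out-of-frame clones held 2.67 and 2.64 bases in WT against 2.59 and 2.63 in Tet2/3 DKO, beside 2.35, 2.30, 2.36 and 2.33 with the other segments. The block was higher in 4 of 4 libraries, by 0.297 ± 0.0517 bases (exact paired permutation p = 0.13, adjusted p = 0.143). TRAJ47 with 3.64 ± 0.173 and TRAJ45 with 2.97 ± 0.120 bases ranked 2 and 3 from the highest of 43. In in-frame clones the block held 2.41 and 2.43 bases in WT against 2.36 and 2.32 in Tet2/3 DKO, without overlap of the genotypes (exact permutation p = 0.33). The excess over the other segments was 0.204 and 0.191 bases in WT against 0.111 and 0.104 in Tet2/3 DKO. The difference between these excesses was -0.0903 bases, and both WT libraries lay above both Tet2/3 DKO libraries (exact permutation p = 0.33). In in-frame clones the single segments with fewer added bases in Tet2/3 DKO without overlap were TRAJ37, TRAJ38, TRAJ42 and TRAJ43, 4 of 9, beside 23.3% of all 43 segments. In out-of-frame clones they were 3 other segments (TRAJ39, TRAJ44 and TRAJ45), beside 20.9%, and TRAJ38 had more added bases in Tet2/3 DKO without overlap, beside 16.3%.

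The mean number of J bases removed was lower in both Tet2/3 DKO libraries than in both WT libraries. In out-of-frame clones of the block the mean was 2.82 and 3.09 bases in WT against 2.75 and 2.62 in Tet2/3 DKO, and in in-frame clones 3.18 and 3.19 in WT against 3.15 and 3.04 in Tet2/3 DKO. The genotypes did not overlap in either measure (exact permutation p = 0.33 for each). With a library left out the difference ran from -0.408 (without WT replicate 1) to -0.134 (without WT replicate 2) bases in out-of-frame clones. In in-frame clones it was -0.140 when Tet2/3 DKO replicate 1 was left out and -0.038 when replicate 2 of that genotype was. In-frame clones of the other segments had lost 3.03 and 3.03 bases in WT against 2.96 and 2.88 in Tet2/3 DKO, so that the same direction was found outside the block. Against the other segments, the block had lost more J bases in in-frame clones in 4 of 4 libraries, by 0.162 ± 0.0154 bases (exact paired permutation p = 0.13, adjusted p = 0.143). In out-of-frame clones the mean difference was -0.214 ± 0.176 bases, lower in 3 libraries and higher in WT replicate 2 (exact paired permutation p = 0.25). The difference was largest in out-of-frame clones of TRAJ39, with 4.79 and 5.26 bases in WT against 4.21 and 4.24 in Tet2/3 DKO, followed by TRAJ42 with 3.72 and 3.59 against 3.03 and 3.09. In out-of-frame clones 5 of the 9 segments (TRAJ37, TRAJ38, TRAJ39, TRAJ42 and TRAJ44) were lower without overlap, beside 25.6% of all 43. In in-frame clones it was 3 of 9 (TRAJ39, TRAJ44 and TRAJ45), beside 37.2%. Each single segment had an adjusted exact permutation p of 0.6 or more over the 9 segments.

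The mean CDR3 of the block was longer than that of the other segments in every library, and in both groups of segments it was longer in both Tet2/3 DKO libraries than in both WT libraries. For the block the mean length was 13.53 and 13.50 amino acids in WT against 13.56 and 13.59 in Tet2/3 DKO, a difference of 0.0609 without overlap (exact permutation p = 0.33). Clones of the other segments had 13.35 and 13.36 amino acids in WT against 13.40 and 13.45 in Tet2/3 DKO. The block exceeded them in 4 of 4 libraries, by 0.152 ± 0.0202 amino acids (exact paired permutation p = 0.13, adjusted p = 0.143), and this excess overlapped between the genotypes (exact permutation p = 1.0).

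TRAJ42 and TRAJ38 had the longest CDR3s of the block, with 14.2 ± 0.0407 and 14.2 ± 0.118 amino acids (SD, n = 4), and TRAJ43 and TRAJ47 the shortest, with 12.4 ± 0.0416 and 12.7 ± 0.0769. TRAJ43 and TRAJ47 ranked 42 and 40 of 43 segments. Over the 9 segments the mean length rose with the number of germline J bases in the CDR3 that were left after trimming (Pearson r = 0.971, Spearman rho = 0.967, a description over segments that share the same 4 libraries). The bases left are part of the measured length, so this relation is in part fixed by construction. With the germline J bases before trimming the relation was weaker (Pearson r = 0.828, Spearman rho = 0.698). TRAJ39 has 32 germline bases in the CDR3, second to TRAJ42, had lost 5.08 bases and had a mean CDR3 of 13.6 amino acids. TRAJ37 has 29, had lost 1.85 and had a mean CDR3 of 13.9 amino acids. As a mean of the 4 libraries the most frequent length was 14 amino acids for 6 segments and 13 for TRAJ40, TRAJ43 and TRAJ47, and it was sharpest in TRAJ44, where 50.3% of in-frame clones had 14.

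TRAJ39 had the largest difference in length of those without overlap. Its in-frame clones had 13.493 and 13.493 amino acids in WT against 13.604 and 13.613 in Tet2/3 DKO, a difference of 0.115 (exact permutation p = 0.33, adjusted p = 1.0 over the 9 segments). TRAJ40 (0.0580) and TRAJ42 (0.0503) were also longer in Tet2/3 DKO without overlap. With clones weighted by reads the difference of TRAJ42 turned to -0.142, with 14.10 and 14.19 amino acids in WT against 14.19 and 13.82 in Tet2/3 DKO, and those of TRAJ39 and TRAJ40 were 0.0882 and 0.127. These were 3 of 9 segments, beside 51.2% of all 43 segments, and no segment of the 43 was shorter without overlap.

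**Figure D3:**
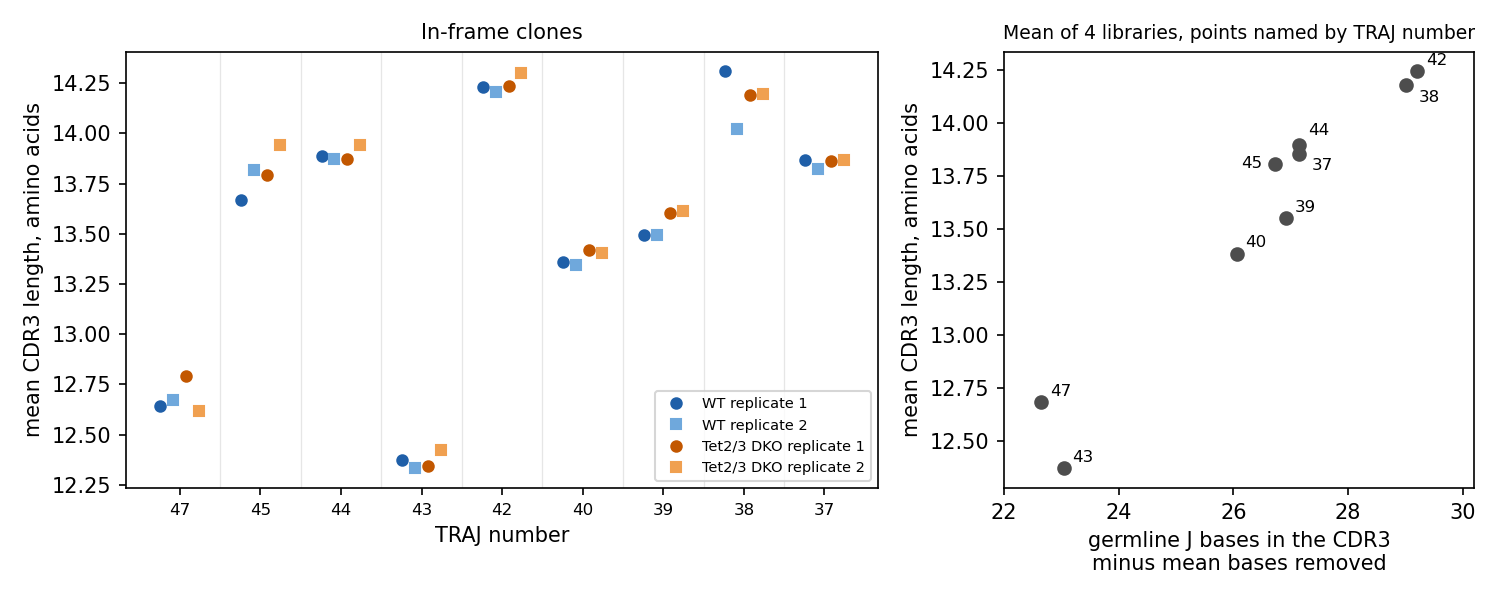
Mean CDR3 length in amino acids of in-frame clones, with 1 point per library (left), and the mean of the 4 libraries against the germline J bases in the CDR3 minus the mean number removed (right, points named by TRAJ number; the axes do not start at 0). TRAJ43 and TRAJ47 are short in every library, and in TRAJ39 both Tet2/3 DKO points lie above both WT points.

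V partners were compared by family, because the mouse locus holds near-identical copies of most TRAV segments, and 35.6% to 38.4% of the clones of the block listed more than 1 V segment. TRAV6, TRAV7 and TRAV14 were the most frequent partners. TRAV6 held 21.7%, 21.6%, 21.6% and 19.6% of the block's clones in WT replicates 1 and 2 and Tet2/3 DKO replicates 1 and 2. TRAV7 held 20.9% ± 1.21 (SD, n = 4) and TRAV14 14.2% ± 0.361. The same 3 families led for each of the 9 segments, and the most frequent pair was TRAV7 with TRAJ37, at 0.997% of all TCRα clones. Against the other segments, TRAV6 (21.8% ± 1.02 with the others) and TRAV7 (22.6% ± 0.455 with the others) were lower with the block in 4 of 4 libraries. TRAV14 was higher with the block in 4 of 4 libraries (13.6% ± 0.318 with the others).

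The V partners varied with position in the locus. Families closest to the J cluster were more frequent with the block, and the families at its far end were less frequent. The V segments TRAV17 to TRAV23, whose starts lie on chr14 between 53806639 and 53977153, held 3.96% and 4.12% of the block's clones in WT against 4.64% and 4.19% in Tet2/3 DKO. With the other segments they held 3.12% and 3.05% in WT against 3.19% and 3.33% in Tet2/3 DKO, lower in 4 of 4 libraries by 1.05 ± 0.280 percentage points (exact paired permutation p = 0.13, adjusted p = 0.143). TRAV1 and TRAV2, with starts at 52427967 and 52567293, held 0.641% and 0.634% of the block's clones in WT against 0.465% and 0.378% in Tet2/3 DKO. With the other segments they held 1.31% and 1.31% in WT against 1.32% and 1.18% in Tet2/3 DKO, higher in 4 of 4 libraries. TRDV1, a V segment of the δ chain at 53881612 that can also join to TRAJ, held 1.70% ± 0.179 of the block's clones and 0.996% ± 0.0797 of the others. In all, 10 of 24 V families were higher with the block in 4 of 4 libraries (41.7%) and 7 were lower (29.2%), with an exact paired permutation p of 0.13 and an adjusted p of 0.184 for each.

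The other segments are not alike in this respect, and the block lay between its neighbours. The near V segments held 17.9% ± 1.18 of the clones of TRAJ48 and up, 4.23% ± 0.290 of those of the block and 0.870% ± 0.141 of those of TRAJ26 to TRAJ35. TRAV1 and TRAV2 held 0.0483% ± 0.0260, 0.529% ± 0.130 and 1.60% ± 0.127 in the same order. Both differences of the block from its neighbours were in the same direction in 4 of 4 libraries (exact paired permutation p = 0.13, adjusted p = 0.13 over 9 comparisons). The change also ran through the block. The near V segments held 9.99% ± 1.51 of the clones of TRAJ47, 7.83% ± 0.945 of TRAJ45, 6.24% ± 1.12 of TRAJ44, 4.96% ± 0.684 of TRAJ43 and 5.30% ± 0.660 of TRAJ42. They held 3.29% ± 0.453 of TRAJ40, 2.63% ± 0.290 of TRAJ39, 1.72% ± 0.610 of TRAJ38 and 2.73% ± 0.666 of TRAJ37, so that TRAJ42 and TRAJ37 stood above the segment before them. Over the 9 segments this share rose with the TRAJ number (Pearson r = 0.961, Spearman rho = 0.933, a description over segments of the same libraries). The flanking segments TRAJ48 and TRAJ35 held 8.61% ± 1.09 and 2.10% ± 0.595.

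**Figure D4:**
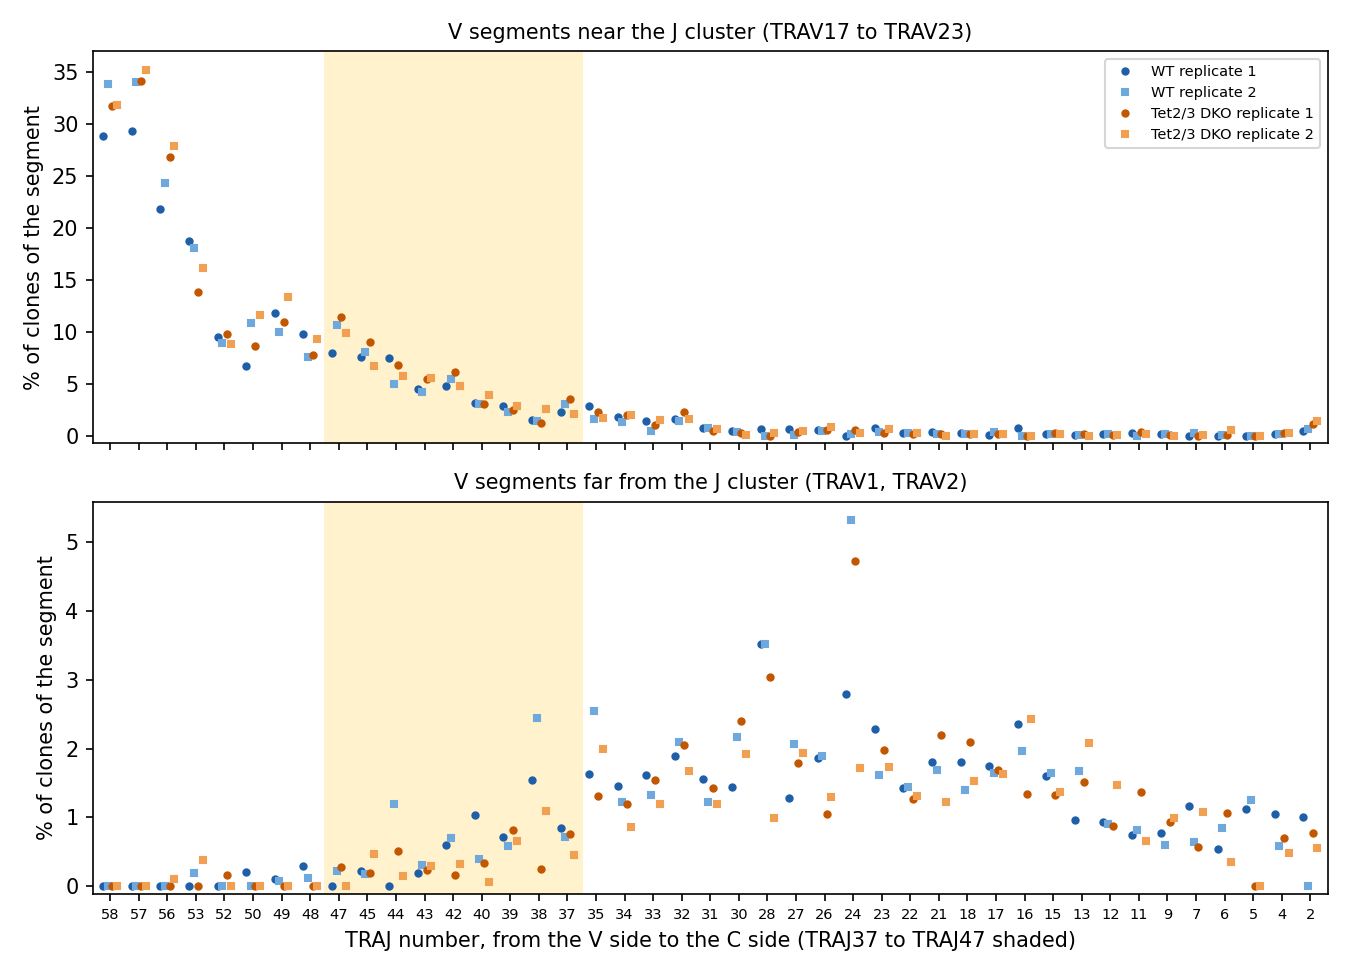
Share of clones of each TRAJ segment, in %, that use a V segment near the J cluster (top, TRAV17 to TRAV23) or far from it (bottom, TRAV1 and TRAV2), with 1 point per library and TRAJ37 to TRAJ47 shaded. As the mean of 4 libraries the near V share is 9.99% at TRAJ47, 1.72% at TRAJ38 and 2.73% at TRAJ37, and the share of TRAV1 and TRAV2 is 0.263% at TRAJ45 and 0.690% at TRAJ37.

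The same direction was found in out-of-frame clones. There the near V segments held 5.56% ± 0.529 of the block's clones and 3.17% ± 0.374 of the others, and TRAV1 and TRAV2 held 1.91% ± 0.647 and 3.97% ± 0.468. Both differences had 1 direction in 4 of 4 libraries (exact paired permutation p = 0.13).

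Between the genotypes, the share of TRAV1 and TRAV2 with the block was lower, and that of the near V segments higher, in both Tet2/3 DKO libraries. The means were 0.638% ± 0.00484 in WT and 0.421% ± 0.0613 in Tet2/3 DKO for TRAV1 and TRAV2, and 4.04% ± 0.110 and 4.41% ± 0.317 for the near V segments, both without overlap (exact permutation p = 0.33 for each). The difference of 0.373 percentage points for the near V segments was 0.149 without Tet2/3 DKO replicate 1 and 0.597 without Tet2/3 DKO replicate 2. The far share rests on 192 clones of the block in all. The difference of the block from the other segments in TRAV1 and TRAV2 was -0.670 and -0.678 percentage points in WT against -0.858 and -0.805 in Tet2/3 DKO (exact permutation p = 0.33). For the near V segments this difference was 0.841 and 1.06 in WT against 1.44 and 0.859 in Tet2/3 DKO, and the genotypes overlapped (exact permutation p = 0.667). With TRAJ48 and up the near V segments held 16.8% and 17.5% in WT against 17.9% and 19.6% in Tet2/3 DKO, the same direction as with the block. With TRAJ26 to TRAJ35 they held 1.00% and 0.670% in WT against 0.885% and 0.924% in Tet2/3 DKO. With TRAJ2 to TRAJ24 they held 0.273% and 0.217% in WT against 0.211% and 0.236% in Tet2/3 DKO. In both of these groups of segments the genotypes overlapped. TRAV1 and TRAV2 held 0.0805% and 0.0495% of TRAJ48 and up in WT against 0.0170% and 0.0463% in Tet2/3 DKO. This was also lower without overlap, on 11 clones. Of TRAJ26 to TRAJ35 they held 1.61% and 1.73% in WT against 1.63% and 1.42% in Tet2/3 DKO. Of TRAJ2 to TRAJ24 they held 1.49% and 1.41% in WT against 1.52% and 1.35% in Tet2/3 DKO, both with overlap. In out-of-frame clones of the block TRAV1 and TRAV2 held 1.68% and 2.86% in WT against 1.68% and 1.42% in Tet2/3 DKO. The near V segments held 5.05% and 5.46% of these clones in WT against 6.30% and 5.43% in Tet2/3 DKO, and the genotypes overlapped.

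No pair of a TRAV family and a segment of the block passed the test. Of 160 pairs of the block with at least 10 clones, edgeR called 0 at an adjusted p under 0.05, beside 0 of 709 pairs over all segments (0%). At an unadjusted p under 0.05 it listed 7 of 160, beside 33 of 709 (4.65%), and DESeq2 called none at an adjusted p under 0.05. The lowest unadjusted p belonged to TRAV13 with TRAJ47, with an unadjusted p of 0.00242 and an adjusted p of 0.821 in edgeR. This pair had 27 and 43 clones in WT against 17 and 23 in Tet2/3 DKO. It lies outside the rule for named pairs and was chosen after its values were seen.

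Most clones of the block were small. The median clone of each segment had 3 reads in every library, and 25.6% to 26.5% of the block's clones had a single read. The 10 largest clones held 6.18% and 3.20% of the block's reads in WT against 2.31% and 11.6% in Tet2/3 DKO, so that the Tet2/3 DKO libraries lay on both sides of the WT libraries (exact permutation p = 1.0). By number of reads, which grows with depth, the largest clone was found in Tet2/3 DKO replicate 2, the deepest library, for 6 of the 9 segments and in WT replicate 1 for 3. For TRAJ44 the 71 reads in Tet2/3 DKO replicate 2 were a smaller share of the library than the 46 reads of its largest clone in WT replicate 1.

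The CDR3 sequences of the clones that stand out by size are shown from the first to the last codon, with the bases aligned to the J segment in capitals. An aligned base can differ from the germline base.
TRAJ42 in Tet2/3 DKO replicate 2: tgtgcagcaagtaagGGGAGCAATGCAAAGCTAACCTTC
TRAJ45 in Tet2/3 DKO replicate 2: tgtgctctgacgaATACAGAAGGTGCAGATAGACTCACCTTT
TRAJ37 in WT replicate 1: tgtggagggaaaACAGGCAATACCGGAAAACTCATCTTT
TRAJ42 in WT replicate 2: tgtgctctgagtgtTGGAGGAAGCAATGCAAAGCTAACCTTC
TRAJ39 in Tet2/3 DKO replicate 1: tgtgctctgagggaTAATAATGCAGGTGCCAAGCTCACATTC
The TRAJ42 clone of Tet2/3 DKO replicate 2 joined TRAV14-1, with 9 J bases removed and 3 bases added, and held 2896 reads, which was 1.01% of the library (95% Wilson interval 0.970% to 1.04%) and 30.6% of the reads of TRAJ42. Clones with the same V family, J segment and CDR3 amino acids held 3398 reads in that library and 0 in the other 3. The TRAJ45 clone of the same library (TRAV6D-7) held 596 reads, 16.1% of the segment, with no J base removed. The TRAJ37 clone of WT replicate 1 joined TRDV1 without an added base, held 731 reads and was the largest of the block there, at 0.424% of the library (0.394% to 0.456%). The same chain was found with 8, 2 and 8 reads in the other 3 libraries. The largest clone of the block in WT replicate 2 (TRAV6-7-DV9 with TRAJ42) held 327 reads, and that in Tet2/3 DKO replicate 1 (TRAV12D-3 with TRAJ39) held 148 reads.

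Among the segments not yet given, the largest clones joined TRAJ38 with TRAV6-6 (358 reads), TRAJ40 with TRAV6-7-DV9 (346 reads), TRAJ47 with TRAV4-4-DV10 (229 reads) and TRAJ44 with TRAV21/DV12 (71 reads), all in Tet2/3 DKO replicate 2. The largest clones of TRAJ43 (TRAV13-1, 209 reads) and TRAJ39 (TRAV14D-1, 197 reads) were found in WT replicate 1.

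**Figure D5:**
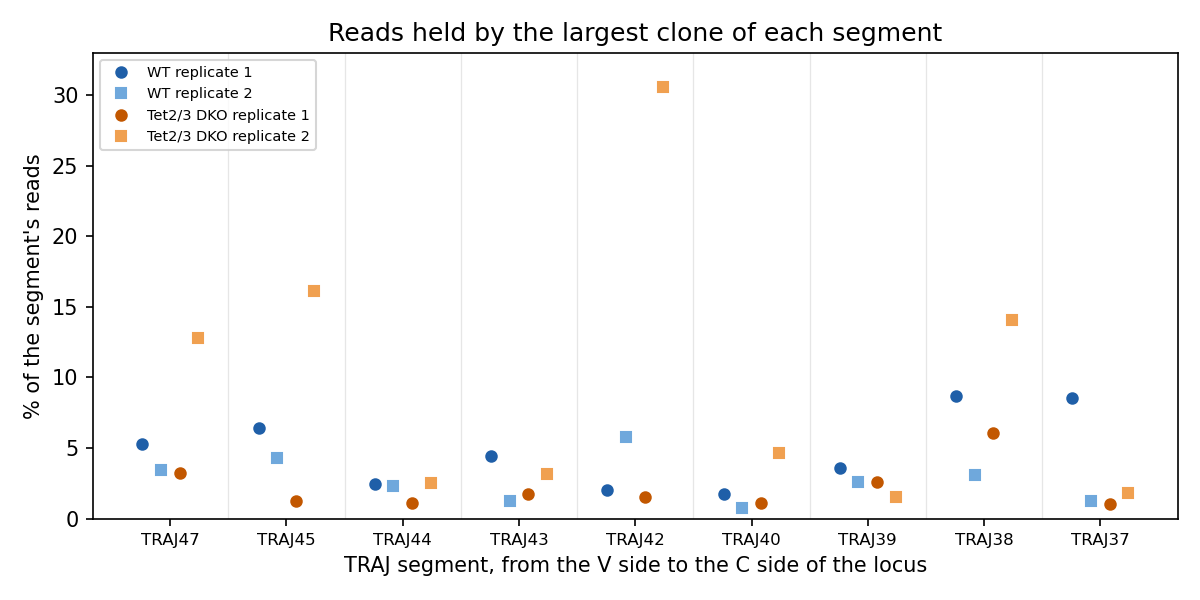
Share of the reads of each TRAJ segment, in %, held by its largest clone, with 1 point per library. The TRAJ42 clone of Tet2/3 DKO replicate 2 stands at 30.6%, and the points of that library are also the highest for TRAJ38, TRAJ40, TRAJ44, TRAJ45 and TRAJ47.

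Part of the chains recurred in all mice. Of 16093 in-frame chains of the block, defined by V family, J segment and CDR3 amino acids, 599 (3.72%) were found in all 4 libraries. They held 31.0% and 28.5% of the block's in-frame reads in WT against 28.7% and 24.1% in Tet2/3 DKO. Among the other segments 4.55% of chains recurred, with 35.9% and 35.7% of reads in WT against 36.2% and 33.2% in Tet2/3 DKO, higher than the block in 4 of 4 libraries (exact paired permutation p = 0.13). Whether a chain is found in all 4 libraries also depends on their depth, and the genotypes were not compared in this measure.

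The segments were far apart in this measure. Recurrent chains held 44.7% to 53.8% of the in-frame reads of TRAJ37 and 26.1% to 33.7% of those of TRAJ43. They held 2.45% to 4.79% of TRAJ45, 2.67% to 5.33% of TRAJ38 and 3.78% to 9.53% of TRAJ47. The shares of TRAJ45, TRAJ38 and TRAJ47 rest on only 11, 7 and 7 recurrent chains. TRAJ44 had 44 recurrent chains, with 20.2% to 26.4% of its in-frame reads. For each segment the recurrent chain with the largest mean share of its segment was taken, with the nucleotide sequence found in most libraries and, among equals, with most reads. In 7 of the 9 segments this sequence had no added base and was found in all 4 libraries, and 6 of these 7 are shown. The seventh, of TRAJ37, is the TRDV1 clone shown above.
TRAJ47 with TRAV7: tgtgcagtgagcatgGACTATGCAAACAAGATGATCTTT
TRAJ43 with TRAV13: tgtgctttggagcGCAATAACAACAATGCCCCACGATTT
TRAJ42 with TRAV14: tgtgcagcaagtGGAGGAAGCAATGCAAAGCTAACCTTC
TRAJ40 with TRAV6: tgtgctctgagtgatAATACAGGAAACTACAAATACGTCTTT
TRAJ39 with TRAV6: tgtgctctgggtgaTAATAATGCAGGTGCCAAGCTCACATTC
TRAJ38 with TRAV7: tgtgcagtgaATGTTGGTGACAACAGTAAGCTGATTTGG
The TRAJ42 chain held 94 and 58 reads in WT against 86 and 110 in Tet2/3 DKO, written in 9 different nucleotide sequences. The TRAJ47 chain held 41 and 13 reads in WT against 15 and 20 in Tet2/3 DKO, and the TRAJ38 chain 23, 15, 17 and 12 reads. The TRAJ40 chain held 13 and 21 reads in WT against 36 and 357 in Tet2/3 DKO, and it includes the largest TRAJ40 clone. The TRAJ39 chain held 158 and 132 reads in WT against 63 and 28 in Tet2/3 DKO. Read numbers of these chains are not scaled to the depth of the libraries, and a difference between genotypes was not tested. The TRAJ43 chain held 247, 35, 38 and 25 reads in WT replicates 1 and 2 and Tet2/3 DKO replicates 1 and 2. For TRAJ44 it was a TRAV6 chain with 4 added bases (21, 54, 6 and 12 reads) and for TRAJ45 a TRAV7 chain with 2 added bases (8, 9, 14 and 12 reads).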

How the data were processed

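RNA was sequenced with a 5′ RACE kit for mouse TCRα and TCRβ chains that adds no molecular identifiers. Per the labels and the submitters' processing notes the authors used bcl2fastq 2.20.0, then fastp 0.21.0 for trimming, and MiXCR 4.7.0 with mm10 to assemble clones. For each library the authors deposited a table of clones with the count of reads and its fraction of all reads. The fraction served as a check on the read counts. The TCRβ tables were not used here. Clones differ in at least 1 base between framework regions 1 and 4, so PCR or sequencing errors can add clones next to a large one.

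V and J segments were those listed first, with alleles removed. No clone listed several J segments. Clones without a covered CDR3, 2.37% to 4.23% of those of TRAJ37 to TRAJ47, stayed in the shares of clones and reads. A frame shift made a clone out of frame, and a clone in frame with a stop codon was counted in neither class. Bases removed from J and bases between V and J were read from the reference points of MiXCR. Segment and V-J pair counts entered edgeR 4.0.16 (quasi-likelihood test) with the totals of the whole TCRα table as library sizes. Features needed at least 10 counts, p-values were adjusted after Benjamini and Hochberg, and calls were made under 0.05. DESeq2 1.42.0 served as an alternative. Other values were compared by exact two-sided permutation tests. Nothing in the sources ties libraries to litters. The p-values of edgeR and DESeq2 rest on the spread between these libraries, with information shared over the features. Exact permutation p-values rest on the arrangements of the library values. Genotypes that do not overlap always give the lowest exact permutation p, 0.33, whatever the size of the difference. Scripts ran with Python 3.11.15, numpy 2.4.6, pandas 2.3.3, scipy 1.17.1 and R 4.3.3. Positions are those of RefSeq (GRCm38.p6), and the J sequences come from the deposited clones.

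The segments, gene groups and tests were chosen with earlier results of these data known. Named were all segments with a clone, the 3 leading TRAV families, V-J pairs past the threshold, the largest clone of each segment and library, and for each segment the recurrent chain with the largest mean share. The V sets near and far from the J cluster, the in-frame over out-of-frame ratio, the shares without the largest clone and the crossed replicate block were chosen after seeing the data. Alternatives covered normalization, test, filters, merging of clones, read weights, downsampling (20 draws), large clones, the replicate number as a block and each library left out.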

Additional observations from a re-analysis of the deposited data

How the results depend on the processing

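For TRAJ37 to TRAJ47 as a block, only the sign of each value was compared between the main setting and each alternative. With all libraries kept, the sign held throughout for the shares, in-frame share, CDR3 length, bases removed and added, large clones and V position shares. It did not hold for the CDR3 length of single segments. Weighted by reads, the difference between genotypes came to -0.142 amino acids for TRAJ42, -0.0914 for TRAJ47 and -0.0522 for TRAJ38. By clones the differences were 0.0503, 0.0449 and 0.0273. Leaving out a library gave -0.909 to 0.227 percentage points for the share in out-of-frame clones, -0.632 to 0.430 for the in-frame share between genotypes, and -1.02 to 1.31 for the log2 ratio of the reads in the 10 largest clones, where Tet2/3 DKO replicate 2 decided the sign. For all TRAJ segments by reads, the count of calls was 2. It was 0 with DESeq2, with the replicate block, with merged clones, after downsampling, without the 10 most abundant clones and with clones that have a CDR3 only, 1 with clones of at least 2 reads, and 0 to 1 with a library left out. By clones it was 0, and 0 to 9 with a library left out. For the 9 segments by clones it was 0, and 0 to 2 with a library left out: without Tet2/3 DKO replicate 1, TRAJ40 and TRAJ42 had an adjusted p of 0.0358 in edgeR. Over V-J pairs it was 0, and 0 to 1 with a library left out. With fewer libraries a genotype rests on a single library, which is assumed to vary like the others, and the cause was not tested.

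Small fold changes turned sign. By clones TRAJ38 came to -0.046 with clones of at least 2 reads, and TRAJ45 to -8.1e-05 with TMM factors and -0.0018 with DESeq2. In out-of-frame clones TRAJ39 came to 0.11 and 0.015, and TRAJ45 to 0.029 and 0.055, with clones of at least 2 reads and with merged clones. TRAJ42 came to -0.032 with clones of at least 2 reads, TRAJ43 to -0.0099 with TMM factors and -0.041 with clones of at least 2 reads, and TRAJ47 to -0.028 with TMM factors. With a library left out the log2 change by reads ran from -0.25 to 0.040 for TRAJ37, -0.050 to 0.17 for TRAJ38, -0.039 to 0.45 for TRAJ42, -0.14 to 0.021 for TRAJ44 and -0.18 to 0.29 for TRAJ45. By clones it ran from -0.10 to 0.024 for TRAJ37 and -0.035 to 0.039 for TRAJ45. In out-of-frame clones it ran from -0.26 to 0.062 for TRAJ37, -0.12 to 0.062 for TRAJ39, -0.050 to 0.20 for TRAJ42, -0.051 to 0.082 for TRAJ43, -0.21 to 0.21 for TRAJ45 and -0.35 to 0.56 for TRAJ47. None of these passed the threshold.

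The replicate numbers are shared by the genotypes, but nothing says that a number marks a shared litter or day. The deviations of same-numbered libraries correlated with r = -0.050 by reads, 0.160 by clones and -0.120 in out-of-frame clones over 43 segments. With the replicate block edgeR called 0 segments by reads, by clones and in out-of-frame clones and 0 V-J pairs. With the numbers crossed the counts over all segments were 2, 0 and 0, with 0 pairs, and none of them was a segment of TRAJ37 to TRAJ47.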
